A study of Mus musculus with 9 samples.

Results

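The 38 genes described here code for glucose uptake and glycolysis, for the branch points between lactate and mitochondrial pyruvate use, and for the response to low oxygen. They were chosen by name: every row of the deposited count table whose gene symbol was on the list was taken. The table has 47729 genes, 15696 of them passed the filter on low counts (at least about 10 counts in enough libraries), and all 38 members were among those. The libraries are bulk RNA-seq of mouse cell cultures. LTR (replicates 1 to 3) are tumour cells derived from neural stem cells and labelled with the genotype lgT/Ras. NF1 (replicates 1 to 3) are tumour cells derived from neural stem cells and labelled Nf1-/- with shp53 and CDK4. NSC (replicates 1, 3 and 5) are wild-type primary neural stem cells. All 9 cultures come from the subventricular zone of the mouse brain and grew in neural stem cell medium for up to 10 passages. The series describes the cultures of each cell type as independent of each other. No oxygen level is given in the labels, and no group is labelled as hypoxic.

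Glycolysis splits glucose into pyruvate, which is either reduced to lactate and exported or taken into mitochondria and used there by pyruvate dehydrogenase. Cells short of oxygen stabilise the HIF alpha subunits, which prolyl hydroxylases otherwise mark for degradation, and HIF then raises transcription of glucose transporters, glycolytic enzymes, lactate exporters, pyruvate dehydrogenase kinases and mitophagy genes. Many tumours keep high glycolysis in the presence of oxygen, and HIF proteins are regulated mainly by degradation, so that transcript levels of the factors do not give their activity.

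Library totals ran from 28600479 to 36042825 counts, except for NSC 3 with 57231024. Per the file headers the NSC libraries were read on lane 1 and both tumour lines on lane 7, so lane and transformation cannot be told apart. Of the genes named in the genotypes, Nf1 had 59.0, 97.2 and 40.1 CPM (counts scaled to a common library size with edgeR's trimmed mean of M-values) in NF1 and 109.6, 82.5 and 114 CPM in NSC, which overlap. Trp53 was higher in NF1 than in NSC (log2 fold change 0.87, edgeR adjusted p = 0.0141) although NF1 is labelled shp53. Cdk4 had 795, 393 and 1124 CPM in NF1 and 334, 456 and 325 CPM in NSC, which overlap (edgeR adjusted p = 0.053). LTR, which has no CDK4 label, had 1015, 935 and 1020 CPM of Cdk4 (edgeR adjusted p = 0.0135 over NSC). In LTR, Trp53 was higher too (1.23, edgeR adjusted p = 0.00258 over NSC), and Nf1 had 80.0, 40.3 and 58.0 CPM (edgeR adjusted p = 0.107 over NSC). The groups are therefore called by their labels throughout. Markers of neural stem cells summed to 704 to 1209 CPM in LTR, 797 to 3202 CPM in NF1 and 5276 to 7237 CPM in NSC. Fabp7, with a mean of 3151 CPM, was the largest part of the NSC sum. Of these 8 markers, 5 were called lower and 1 (Pax6) higher in LTR, and 3 lower in NF1. Of all tested genes 20.9% were called lower and 14.9% higher in LTR, and 13.1% lower in NF1. Sox2 and Nes were called in neither line, and Nes was highest in NF1 2 (2433 CPM). The 6 astrocyte markers summed to 39.3 to 77.5 CPM in LTR, 47.9 to 553 CPM in NF1 and 1106 to 1698 CPM in NSC. The 8 mural cell and fibroblast markers summed to 4.45 to 10.5 CPM in LTR, 6.96 to 49.3 CPM in NF1 and 233 to 1985 CPM in NSC. NSC 3 was the lowest NSC library, with 165 CPM of Acta2 against 796 and 918 CPM in NSC 1 and NSC 5. The highest NF1 sum was in NF1 2, with 38.4 CPM of Rgs5. The 6 neuronal markers summed to 21.6 to 66.5, 19.2 to 43.4 and 211 to 293 CPM in the same order of groups. Most of the NSC sum was Map2 (mean 207 CPM), while Tubb3 overlapped between all groups. The defining microglial markers Itgam, Cx3cr1 and Tyrobp had 0 counts in all LTR and NF1 libraries, while the 8 microglial and myeloid markers summed to 2.19 to 3.01 CPM in LTR, 3.999 to 22.9 CPM in NF1 and 3.63 to 7.53 CPM in NSC. Of these, the lysosomal gene Cd68 was called higher in NF1, with 3.91, 22.1 and 4.47 CPM in NF1 and 1.85, 1.44 and 2.68 CPM in NSC (2.35 ± 0.67, edgeR adjusted p = 0.0342), and P2ry12 was called lower in both lines. The 6 endothelial markers summed to at most 3.08, 7.46 and 4.18 CPM in LTR, NF1 and NSC. Cldn5 had 0 counts in every library and Tie1 in every tumour library, while Cdh5 was called higher without overlap in both lines, at 0.623, 1.03 and 1.28 CPM in LTR, 1.68, 1.82 and 0.956 CPM in NF1, and 0.0794, 0.0541 and 0.322 CPM in NSC (2.70 ± 0.71, edgeR adjusted p = 0.0176, in LTR over NSC and 3.30 ± 0.72, edgeR adjusted p = 0.012, in NF1 over NSC). In bulk libraries fewer cells of a type and less RNA per cell cannot be told apart, and the part of these marker differences in the results below was not tested.

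Both NF1 2 and NSC 3 stand apart from their groups and touch many of the members. Over all tested genes the log2 CPM of NF1 2 correlated at 0.91 to 0.936 with the other tumour libraries and at 0.886 to 0.892 with the NSC libraries. On the first principal component, which separates NSC (-150.4 to -136.3) from the other tumour libraries (84.6 to 108.7), it lay at -21.2, and on the second it lay at -102.7, outside the range of the other libraries (-18.9 to 34.2). It also holds the highest astrocyte sum of the tumour libraries. Among the members it had 6.197 times the mean of NF1 1 and NF1 3 for Eno2, 4.26 times for Pfkfb3 and 3.93 times for Epas1, and 0.086 times for Egln3 and 0.418 times for Ldha. NSC 3 had 2.88 times the mean of NSC 1 and NSC 5 for Gapdh, 2.43 times for Adm, 2.34 times for Eno1 and 2.33 times for Slc2a1, and 0.184 times for Ndrg1 and 0.239 times for Eno2. The counts of called members are therefore also given without these libraries. All fold changes below are log2 values ± SE, means are given ± SD (n = 3 libraries a group), and all adjusted p-values come from edgeR's quasi-likelihood test with Benjamini-Hochberg adjustment over the 15696 tested genes.

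In LTR against NSC, 20 of the 38 members passed an adjusted p of 0.05 in edgeR's quasi-likelihood test, 13 higher and 7 lower. Of all tested genes 35.9% were called in this comparison, 14.9% higher and 20.9% lower, so that members were called higher in 34.2% of cases and lower in 18.4%. The median log2 fold change was 0.35 over the members and -0.06 over all tested genes. In NF1 against NSC, 18 members passed, 12 higher and 6 lower, where 23.1% of all tested genes were called, 10.1% higher and 13.1% lower. Here the median log2 fold change was 0.34 over the members and 0.00 over all tested genes. Without regard to the test, the libraries of LTR and NSC did not overlap for 14 members higher and 8 lower in LTR, where 26.9% of all tested genes were higher and 32% lower without overlap (59% in all). Those of NF1 and NSC did not overlap for 13 members higher and 7 lower in NF1, where 18.7% of all tested genes were higher and 23.7% lower without overlap (42.3% in all). Both comparisons use the same NSC libraries, so their calls are not independent of each other. The members were chosen with earlier results of these data known, so their shares are not those of a blindly chosen list.

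The members called higher in both lines were Pfkl, Pkm, Ldha, Pdk1, Pdk3, Hif1a, Bnip3, Bnip3l, Ankrd37, Ndrg1 and P4ha2. Those called lower in both were Pfkm, Pfkp, Ldhb, Pfkfb3, Epas1 and Car12. Tpi1 and Slc16a3 were called higher in LTR only, Egln1 lower in LTR only and Slc2a3 higher in NF1 only; edgeR called a difference between the lines for none of these 4, and DESeq2 called one for Slc16a3 (adjusted p = 0.000106). The other 17 members passed in neither line: Slc2a1, Hk1, Hk2, Gpi1, Aldoa, Gapdh, Pgk1, Pgam1, Eno1, Eno2, Slc16a1, Pfkfb4, Egln3, Car9, Ddit4, P4ha1 and Adm.

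The counts depended on single libraries of NSC and of NF1. With each of the 9 libraries left out in turn, 12 of the 20 LTR calls and 10 of the 18 NF1 calls passed every time, and 9 members did so in both lines: Pfkl, Pdk1, Bnip3, Ankrd37 and P4ha2 among the higher, and Pfkp, Ldhb, Epas1 and Car12 among the lower. Without NSC 1 the count was 7 higher and 5 lower in LTR and 6 higher and 4 lower in NF1, and without NSC 5 it was 8 and 5 in LTR and 7 and 5 in NF1. Without NF1 1 it was 7 higher and 4 lower in NF1. Without NSC 3 it was 16 higher and 5 lower in LTR and 13 and 5 in NF1, and without NF1 2 it was 13 and 7 in LTR and 14 and 6 in NF1. Leaving out NF1 2 and NSC 3 together gave 19 higher and 7 lower members in LTR and 19 higher and 6 lower in NF1, and in that setting Aldoa, Gapdh, Pgam1 and Slc2a1 passed as higher in both lines. In that setting 8018 genes were called in LTR and 7485 in NF1 over the whole table, against 5634 and 3631 with all libraries. Calls over the whole table also moved with single libraries. They were 3281 in LTR and 1752 in NF1 without NSC 1, and 3452 and 1857 without NSC 5. Leaving out NF1 1 gave 1898 in NF1, and leaving out NF1 2 gave 7640 in LTR and 6900 in NF1. Leaving out NSC 3 gave 5257 and 3303, fewer than with all libraries, while more members were called higher.

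**Figure D1:**
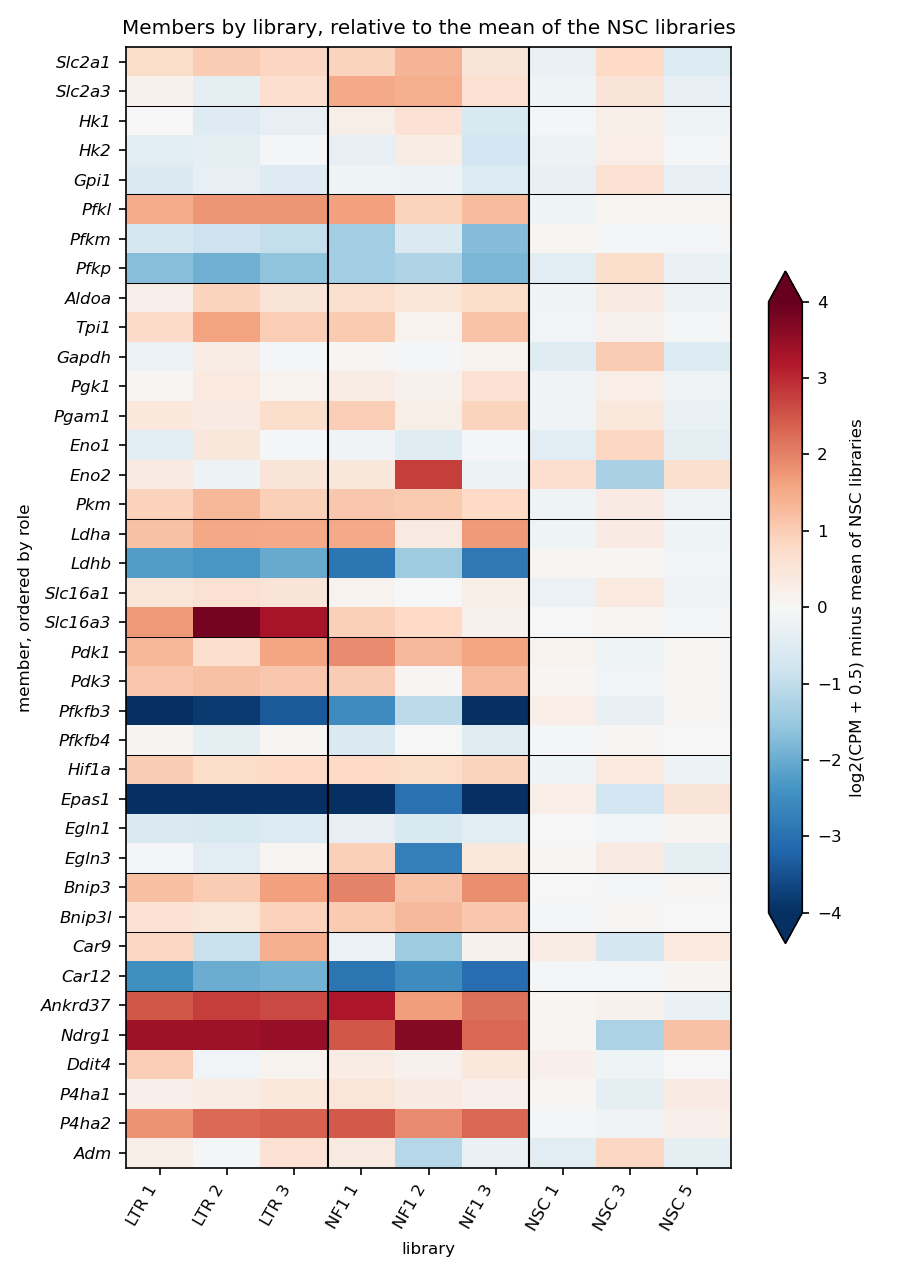
Level of each of the 38 members (rows, in order of role, with lines between roles) in each library (columns), as log2(CPM + 0.5) minus the mean of the 3 NSC libraries. Red is above and blue below the NSC mean, and the scale ends at 4 on either side. Epas1, Pfkfb3, Car12 and Ldhb are blue and Ankrd37, Ndrg1 and P4ha2 red in all 6 tumour libraries, and NF1 2 differs from NF1 1 and NF1 3 for Eno2, Egln3 and Pfkfb3.

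**Figure D2:**
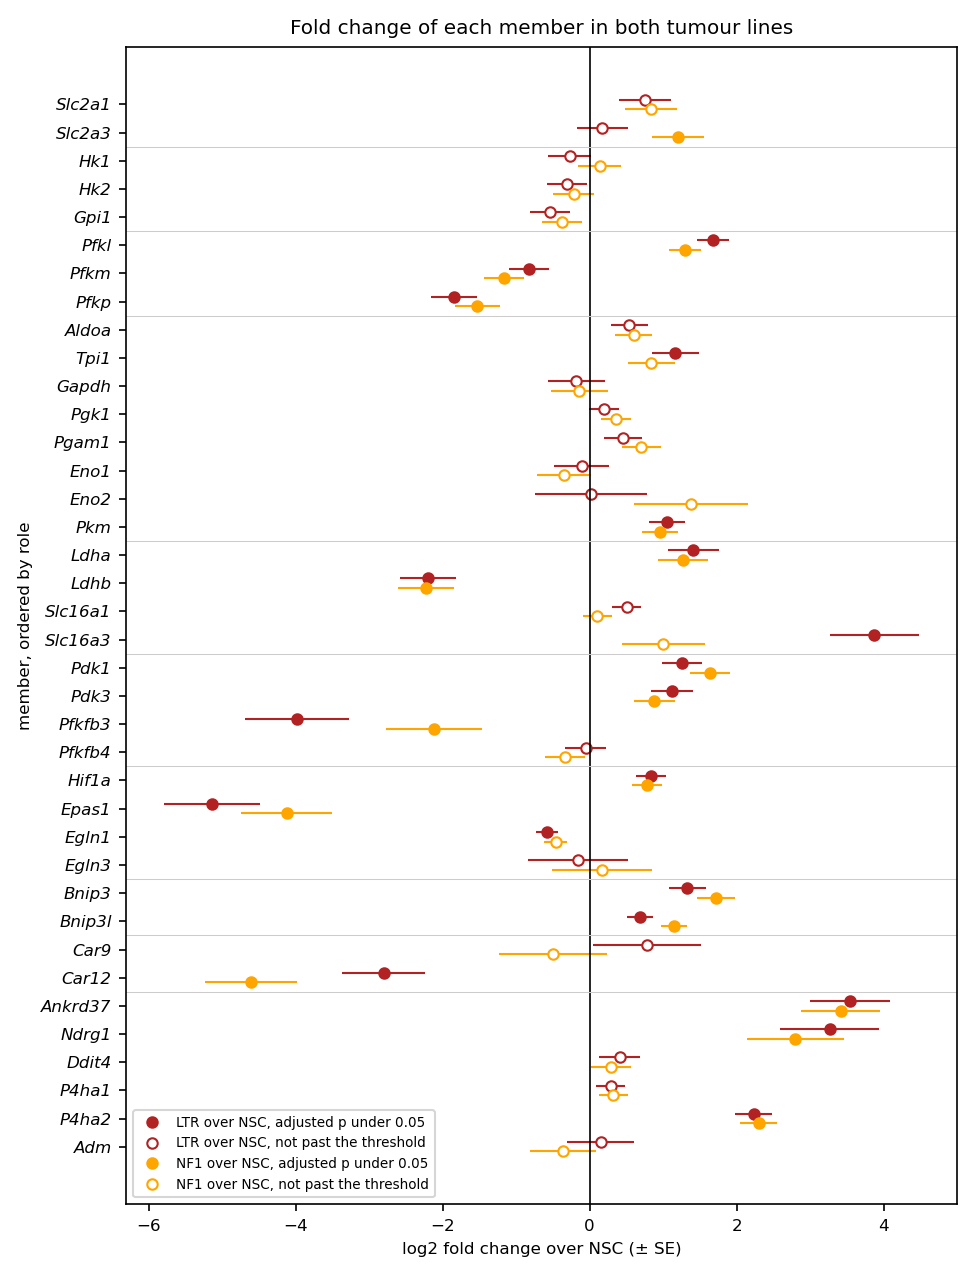
Log2 fold change over NSC with its standard error for each member in LTR (red, upper point) and NF1 (orange, lower point), n = 3 libraries a group. Filled points have an adjusted p under 0.05 in edgeR's test. The phosphofructokinase, lactate dehydrogenase and HIF alpha genes have filled points on both sides of 0.

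Sequence upstream of the start was read for ACGTG, a form of the core of the HIF binding motif, because many of the members are known HIF targets. Other forms, such as GCGTG, were not searched and can stand in the lower-case letters below. The 5 letters ACGTG were searched on both strands (written ACGTG or CACGT on the strand of the gene) from 250 bases before to 50 after each RefSeq start, build GRCm38.p6. A gene with several starts was counted if any of them held the motif. Pkm, Aldoa, Hk1, Ldha and Pfkm held it at some of their starts and not at others. The 6 letters CACGTG, which also form the E-box bound by MYC and other factors, match on both strands and hold this motif. Among the 34 members that RefSeq's promoters cover, 23 held it (67.6%), against 3113 of 10914 tested genes there (28.5%) and 5886 of all 27025 genes (21.8%). Slc2a3, Epas1, Bnip3l and Ndrg1 are not among those 34. As the members include genes chosen as HIF targets, a share above that of all genes was likely beforehand. The motif was in 7 of 9 members called higher in both lines, 2 of 5 called lower in both, 2 of 3 called in 1 line and 12 of 17 called in neither. A match describes the letters only. The 160 bases before the start (for Ldha the first of its starts) are shown for 8 members, with the motif in capitals, 5′ to 3′ on the strand of the gene. The first 4 belong to members that were higher in both lines and Slc16a3 was higher in LTR, while Pgk1, Slc2a1 and Car9, 3 textbook HIF targets, passed in neither line.
Ankrd37: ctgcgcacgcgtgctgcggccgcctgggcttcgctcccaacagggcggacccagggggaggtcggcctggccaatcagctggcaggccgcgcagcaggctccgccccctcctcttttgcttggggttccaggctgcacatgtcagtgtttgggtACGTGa
P4ha2: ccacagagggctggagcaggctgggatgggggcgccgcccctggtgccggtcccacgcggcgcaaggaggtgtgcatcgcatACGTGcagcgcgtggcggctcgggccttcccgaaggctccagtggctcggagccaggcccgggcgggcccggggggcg
Bnip3: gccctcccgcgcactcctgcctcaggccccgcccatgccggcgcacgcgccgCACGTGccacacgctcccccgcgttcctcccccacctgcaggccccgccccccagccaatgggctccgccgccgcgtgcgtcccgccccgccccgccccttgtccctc
Ldha: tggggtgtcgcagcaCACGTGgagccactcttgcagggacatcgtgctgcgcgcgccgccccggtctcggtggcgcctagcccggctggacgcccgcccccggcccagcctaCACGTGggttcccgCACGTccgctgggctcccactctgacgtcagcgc
Slc16a3: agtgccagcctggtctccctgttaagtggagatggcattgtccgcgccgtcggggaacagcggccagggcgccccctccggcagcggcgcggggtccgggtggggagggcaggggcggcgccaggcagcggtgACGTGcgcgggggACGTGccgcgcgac
Pgk1: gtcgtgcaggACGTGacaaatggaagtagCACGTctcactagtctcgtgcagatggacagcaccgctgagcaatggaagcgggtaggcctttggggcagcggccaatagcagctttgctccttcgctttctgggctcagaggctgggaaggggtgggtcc
Slc2a1: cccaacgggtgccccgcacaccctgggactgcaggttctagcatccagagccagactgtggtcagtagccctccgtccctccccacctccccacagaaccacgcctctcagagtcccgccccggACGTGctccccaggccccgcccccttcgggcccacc
Car9: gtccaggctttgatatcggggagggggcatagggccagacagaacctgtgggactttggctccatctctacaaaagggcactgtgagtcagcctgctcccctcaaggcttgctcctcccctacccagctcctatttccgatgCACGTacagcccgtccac
These stretches lie at chr8:45999851-46000010 (minus strand) for Ankrd37, chr11:54100764-54100923 (plus) for P4ha2, chr7:138909507-138909666 (minus) for Bnip3, chr7:46845644-46845803 (plus) for Ldha, chr11:120948907-120949066 (plus) for Slc16a3, chrX:106186940-106187099 (plus) for Pgk1, chr4:119108585-119108744 (plus) for Slc2a1 and chr4:43506866-43507025 (plus) for Car9. Ldha holds 5 matches, 4 of which overlap in pairs as CACGTG, and the 2 matches of Bnip3 form 1 such pair. The letters stood in front of members called in neither line as well as in front of those called higher.

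Glucose enters the cell through the transporters Slc2a1 (GLUT1) and Slc2a3 (GLUT3). Slc2a1 had 133, 162 and 145 CPM in LTR, 149, 205 and 114 CPM in NF1, and 66.04, 141 and 54.9 CPM in NSC. NSC 3 lay inside the range of the tumour libraries and NSC 1 and NSC 5 below all of them, and the log2 fold change was 0.75 ± 0.36 (edgeR adjusted p = 0.123) in LTR over NSC and 0.84 ± 0.36 (edgeR adjusted p = 0.115) in NF1 over NSC. Without NSC 3 it passed as higher in both lines (adjusted p = 0.00688 in LTR and 0.00811 in NF1). Slc2a3, the transporter with high affinity for glucose known from neurons, had 80.5, 54.9 and 113 CPM in LTR, 205, 196 and 108 CPM in NF1, and 63.05, 101 and 56.3 CPM in NSC. All 3 NF1 libraries lay above NSC while LTR overlapped NSC, with 1.21 ± 0.35 (edgeR adjusted p = 0.0366) in NF1 over NSC and 0.17 ± 0.35 (edgeR adjusted p = 0.719) in LTR over NSC. That NF1 call was lost without NSC 1, NSC 5, LTR 1 or NF1 1, with an adjusted p of up to 0.129.

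The hexokinases, which trap glucose as glucose 6-phosphate, and glucose-6-phosphate isomerase (Gpi1) passed in neither line. Hk1 averaged 178 ± 32.4 CPM in LTR, 236 ± 89.5 CPM in NF1 and 215 ± 32.5 CPM in NSC (SD, n = 3 each). Hk2, the isoform often induced in tumours, averaged 44.6 ± 6.03 CPM in LTR, 47.5 ± 17.7 CPM in NF1 and 55.2 ± 9.59 CPM in NSC. Both genes overlapped between all groups, and Hk1 made up 73.3% ± 4.63 in LTR, 77.4% ± 2.46 in NF1 and 73.2% ± 1.64 in NSC of the pair per kb of exon. Gpi1 had 376, 448 and 399 CPM in LTR, 499, 492 and 383 CPM in NF1, and 462, 865 and 451 CPM in NSC, with NSC 3 above all other libraries.

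The genes of phosphofructokinase, which commits the sugar to glycolysis, changed in opposite directions. Its liver-type subunit gene Pfkl, at chr10:77986947-78010083 on GRCm38, had 212, 259 and 256 CPM in LTR, 235, 142 and 181 CPM in NF1, and 67.7, 79.7 and 79.9 CPM in NSC. Every tumour library lay above every NSC library, and the log2 fold change was 1.68 ± 0.22 (edgeR adjusted p = 0.00131) in LTR over NSC and 1.29 ± 0.21 (edgeR adjusted p = 0.0042) in NF1 over NSC. The platelet-type gene Pfkp, at chr13:6579768-6648777, had 46.5, 40.5 and 49.7 CPM in LTR, 59.8, 66.7 and 42.97 CPM in NF1, and 115, 248 and 126 CPM in NSC. It was lower in every tumour library, with a log2 fold change of -1.84 ± 0.31 (edgeR adjusted p = 0.0033) in LTR over NSC and -1.53 ± 0.31 (edgeR adjusted p = 0.00917) in NF1 over NSC. The muscle-type gene Pfkm, at chr15:98092589-98132451, had 82.1, 73.7 and 67.4 CPM in LTR, 49.5, 87.1 and 39.3 CPM in NF1, and 139.5, 128 and 128 CPM in NSC. It too was lower without overlap (-0.82 ± 0.27, edgeR adjusted p = 0.0413, in LTR over NSC and -1.17 ± 0.27, edgeR adjusted p = 0.0165, in NF1 over NSC), but the LTR call was lost when any of 7 of the libraries was left out, with an adjusted p of up to 0.148, and the NF1 call without NSC 1 or NF1 1, with one of up to 0.0679. Exons of Pfkm overlap those of Senp1 over 10.8% of their length and exons of Pfkp those of Pitrm1 over 5.58%, and the counting mode is not given, so some counts of these genes could be split.

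Per kb of exon, Pfkl made up 58.5% ± 4.68 in LTR, 56.5% ± 13.8 in NF1 and 18.1% ± 1.75 in NSC of the 3 phosphofructokinase genes (SD, n = 3 each). In single libraries the share was 53.1, 60.8 and 61.6% in LTR, 64.6, 40.6 and 64.4% in NF1 and 16.8, 17.4 and 20.1% in NSC, so NF1 2 was the tumour library nearest to NSC and still above it. The summed level of the 3 genes was 62.0 ± 2.06 CPM per kb in LTR and 63.0 ± 4.96 in NSC, which overlapped. NF1, at 49.6 ± 6.61, lay below both LTR and NSC in every library. The shift between subunits in LTR thus came with a sum that differed by less than the spread between the NSC libraries.

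Shares within 13 paralogue families were compared in the same way, by exact permutation tests (two-sided, 39 tests), in which 3 libraries against 3 cannot give a p under 0.1, before or after adjustment. In both LTR and NF1, 8 of the 13 families had shares that did not overlap with NSC (exact permutation p = 0.1 for each), and between NF1 and LTR 2 did not overlap. Of single genes 59% did not overlap between LTR and NSC, 42.3% between NF1 and NSC and 12.5% between NF1 and LTR. A share is another measure than the level of a gene, and no background of shares was computed. The counts of families can therefore not be read as an excess. The families of Pfkl, Ldha, Pfkfb3, Hif1a, Car9 and P4ha1 did not overlap with NSC in both lines, those of Slc16a1 and Bnip3 in LTR and those of Hk1 and Pdk1 in NF1. The size of a share depends on exon length, taken from GENCODE M21, but whether the libraries of a pair of genes overlap does not.

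**Figure D3:**
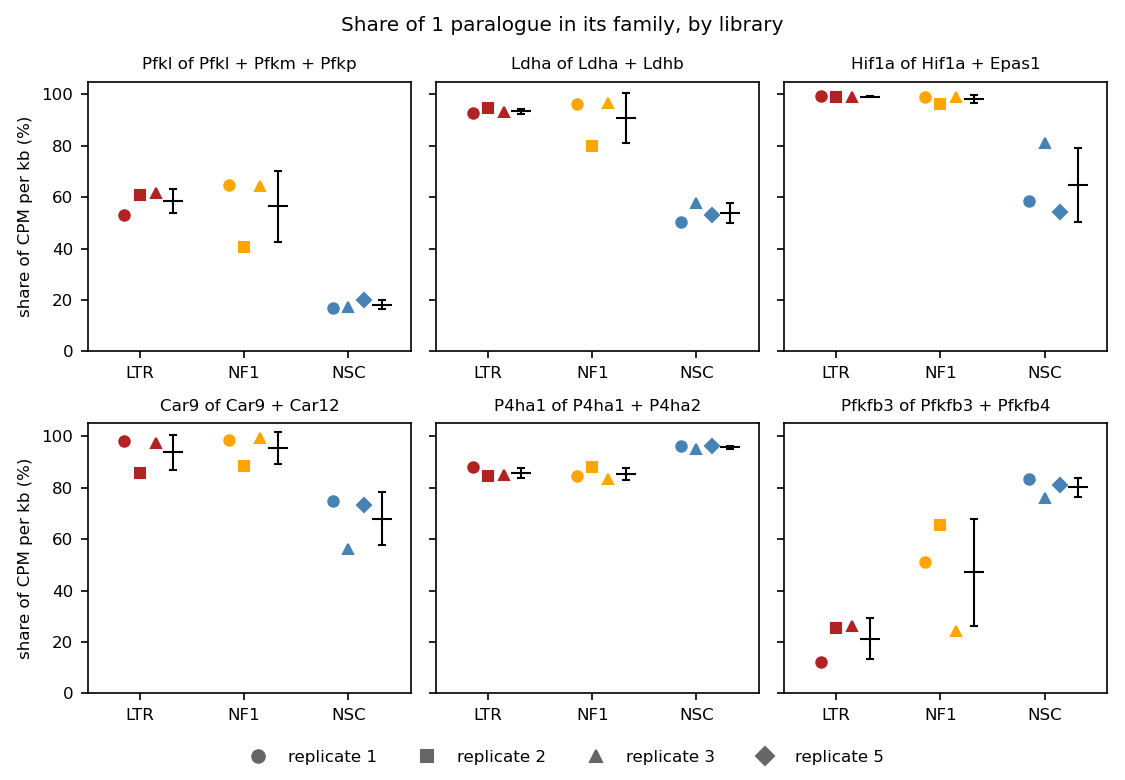
Share of 1 gene in the summed CPM per kb of its paralogue family, in percent, for 6 families. Each point is a library, with its shape giving the replicate number, and the bars are mean ± SD (n = 3). Pfkl, Ldha, Hif1a and Car9 take a larger share in every LTR and NF1 library than in any NSC library, and P4ha1 and Pfkfb3 a smaller one.

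Of the 8 members of lower glycolysis, Pkm was called higher in both lines and Tpi1 in LTR. Pkm, the muscle-type pyruvate kinase gene and per kb the most abundant member in every group (760 CPM per kb in LTR, 712 in NF1 and 366 in NSC), had 3389, 4545 and 3468 CPM in LTR, 3823, 3721 and 3135 CPM in NF1, and 1598, 2263 and 1632 CPM in NSC. All tumour libraries lay above all NSC libraries, with a log2 fold change of 1.05 ± 0.25 (edgeR adjusted p = 0.0114) in LTR over NSC and 0.96 ± 0.25 (edgeR adjusted p = 0.0231) in NF1 over NSC. Counts per gene do not separate its splice forms PKM1 and PKM2. Without NSC 1 or NSC 5 both calls were lost, and without NF1 1 that of NF1, with an adjusted p of up to 0.0541 in LTR and 0.099 in NF1. Triosephosphate isomerase, Tpi1, had 866, 1568 and 1023 CPM in LTR, 1067, 558 and 1132 CPM in NF1, and 478, 579 and 483 CPM in NSC. LTR did not overlap NSC (1.17 ± 0.32, edgeR adjusted p = 0.0211), and in NF1 only NF1 2 lay inside the range of NSC (0.84 ± 0.32, edgeR adjusted p = 0.0856). The Tpi1 call in LTR was lost without NSC 1, NSC 5 or LTR 2 (adjusted p up to 0.0766), and without NF1 2 Tpi1 passed in NF1 (adjusted p = 0.00874).

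Aldolase A (Aldoa) had 1108, 1760 and 1357 CPM in LTR, 1480, 1333 and 1605 CPM in NF1, and 857, 1228 and 827 CPM in NSC. NF1 lay above NSC in every library, but neither line passed (0.54 ± 0.25, edgeR adjusted p = 0.12, in LTR over NSC and 0.60 ± 0.25, edgeR adjusted p = 0.111, in NF1 over NSC), and without NSC 3 LTR did (adjusted p = 0.0426). Phosphoglycerate mutase 1 (Pgam1) had 119, 112 and 144 CPM in LTR, 175, 104 and 166 CPM in NF1, and 80.5, 119 and 73.6 CPM in NSC. Its log2 fold change was 0.46 ± 0.26 (edgeR adjusted p = 0.191) in LTR over NSC and 0.71 ± 0.26 (edgeR adjusted p = 0.0782) in NF1 over NSC, and NF1 passed without NSC 3 or without NF1 2, with an adjusted p as low as 0.0118. Phosphoglycerate kinase 1 (Pgk1), the first ATP-yielding enzyme of the pathway, averaged 250.2 ± 30.99 CPM in LTR, 279.7 ± 44.5 CPM in NF1 and 219 ± 37.6 CPM in NSC. Its groups overlapped. Of the 50-base stretches of its transcripts, 53.9% also occur elsewhere among annotated genes, so the level of Pgk1 depends on how reads with several matches were counted, which is not given; the same holds for Pgam1 with 36.2%. Neuronal enolase, Eno2, had 16.2, 10.8 and 18.1 CPM in LTR, 17.4, 87.4 and 10.8 CPM in NF1, and 20.3, 4.76 and 19.6 CPM in NSC. Its level was highest in NF1 2 and lowest in NSC 3, and neither line passed.

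Gapdh and Eno1 passed in neither line, and NSC 3 stood apart from the other NSC libraries for both. Gapdh (glyceraldehyde-3-phosphate dehydrogenase) had 270.1, 386 and 301 CPM in LTR, 329.5, 308 and 345 CPM in NF1, and 228, 639 and 217 CPM in NSC. Enolase 1, Eno1, had 492, 916 and 638 CPM in LTR, 607, 482 and 640.3 CPM in NF1, and 504, 1189 and 511 CPM in NSC. For both genes NSC 3 was higher than the other 8 libraries, and NSC 1 and NSC 5 lay near each other. The near-identical copies of these genes differed in the opposite direction, as was found after the values were seen. The processed pseudogene Gm13394, a copy of Gapdh, had 197, 218 and 210.4 CPM in LTR, 244, 199 and 209 CPM in NF1, and 144, 2.44 and 142 CPM in NSC. Of the Eno1 copies, Eno1b had 240.4, 497 and 304 CPM in LTR, 303, 233 and 307 CPM in NF1, and 197, 2.55 and 208 CPM in NSC. Gm4735, the other Eno1 copy, had 245, 467 and 315 CPM in LTR, 323, 229 and 294 CPM in NF1, and 218, 2.96 and 227 CPM in NSC. NSC 3 was therefore nearly without counts on all 3 copies, while the other libraries had 36.1% to 51.3% of the summed counts of gene and copies on the copies.

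The same was seen beyond these genes. In NSC 3, 34 rows of the table had less than 1/10 of the lowest level of the other 8 libraries, where that was at least 10 CPM, and 24 of them are processed pseudogenes. No other library had any such row. Processed pseudogenes summed to 1096 CPM in NSC 3, against 3300 to 3375 CPM in NSC 1 and NSC 5 and 3518 to 7321 CPM in the tumour libraries. Whether NSC 3 was aligned or counted in another way is not stated in the labels and was not tested. With copies added, Gapdh had 467, 604 and 512 CPM in LTR, 574, 506 and 554 CPM in NF1, and 371, 641 and 359 CPM in NSC. NSC 3 then still lay above all tumour libraries for Gapdh, and NSC 1 and NSC 5 below them. For Eno1 with its copies the levels were 978, 1880 and 1257 CPM in LTR, 1233, 944 and 1242 CPM in NF1, and 919, 1194 and 946 CPM in NSC, so NSC 3 lay inside the range of the tumour libraries. The log2 fold change of the sum was 0.21 in LTR over NSC and 0.25 in NF1 over NSC for Gapdh, and 0.43 and 0.16 for Eno1, against -0.18 and -0.14 for Gapdh and -0.11 and -0.35 for Eno1 without the copies. None of these passed (adjusted p 0.243 to 0.698 with copies), and the direction of both genes depended on the copies.

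**Figure D4:**
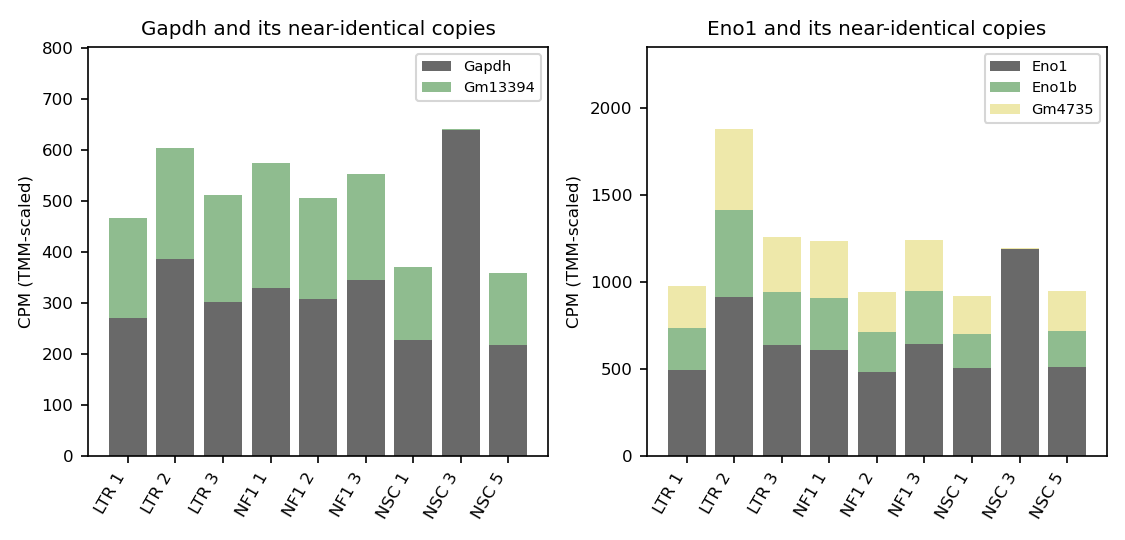
CPM of Gapdh (left) and Eno1 (right) in each library, stacked with the CPM of their near-identical copies in the table. In 8 libraries the copies make up 36.1% to 51.3% of the bar, and in NSC 3 0.38% for Gapdh and 0.46% for Eno1.

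**Figure D5:**
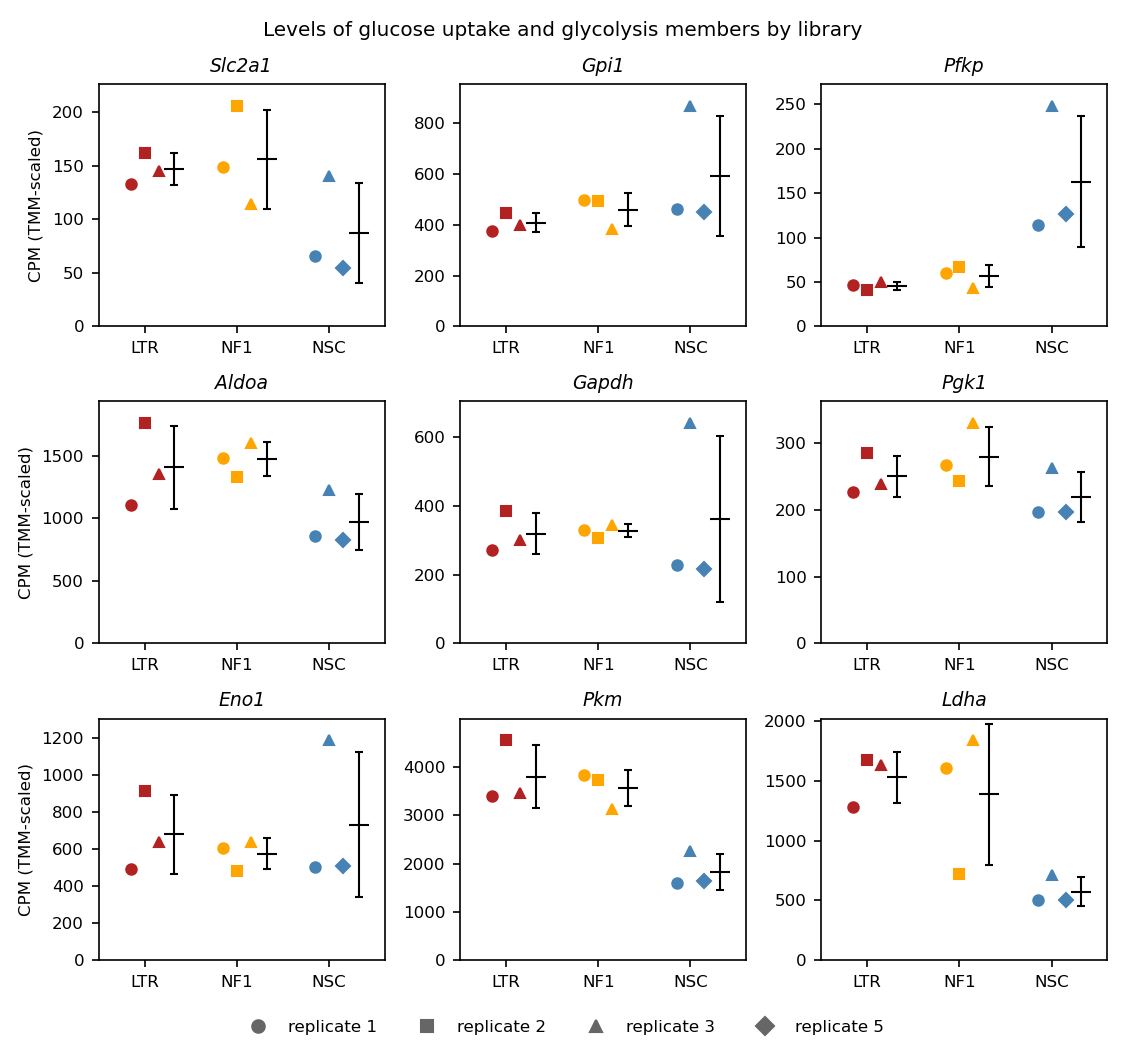
CPM of 9 members of glucose uptake, glycolysis and lactate formation. Points are libraries, with the shape giving the replicate number, and bars are mean ± SD (n = 3), each axis starting at 0. NSC 3 (blue triangle) is the highest NSC library in all 9 panels, and for Pkm and Ldha it stays below all tumour libraries.

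At the branch to lactate, the 2 lactate dehydrogenase genes moved in opposite directions. Ldha (at chr7:46841475-46855627), whose subunit favours pyruvate reduction, had 1279, 1669 and 1629 CPM in LTR, 1606, 719.6 and 1834 CPM in NF1, and 504, 709.8 and 508 CPM in NSC. NF1 2 was the lowest tumour library and lay just above NSC 3, and the log2 fold change was 1.41 ± 0.34 (edgeR adjusted p = 0.0134) in LTR over NSC and 1.27 ± 0.34 (edgeR adjusted p = 0.0276) in NF1 over NSC. Ldhb (at chr6:142490249-142507957), whose subunit favours lactate oxidation, had 48.5, 45.5 and 57.05 CPM in LTR, 30.5, 86.4 and 31.5 CPM in NF1, and 236, 245 and 213 CPM in NSC. It was lower in every tumour library, 4.6-fold in LTR and 4.68-fold in NF1 (log2 fold change -2.20 ± 0.38, edgeR adjusted p = 0.00366, in LTR over NSC and -2.23 ± 0.38, edgeR adjusted p = 0.00492, in NF1 over NSC). The share of Ldha in the pair per kb was 93.4% ± 1.02 in LTR, 90.8% ± 9.55 in NF1 and 53.8% ± 3.85 in NSC, and in single libraries 92.6, 94.6 and 93.1% in LTR, 96.2, 79.8 and 96.5% in NF1 and 50.3, 57.9 and 53.1% in NSC. The Ldha calls were lost without NSC 1 or NSC 5 in both lines, and in NF1 also without NF1 1 or NF1 3, with an adjusted p of up to 0.0557 in LTR and 0.103 in NF1, while those of Ldhb held throughout. With NF1 and NSC fitted alone the NF1 call of Ldha was lost as well (adjusted p = 0.0608). Ldhb shares 21.0% of its 50-base stretches with other annotated genes, and its copy Gm5514 had 3.19, 3.13 and 11.4 CPM on average in LTR, NF1 and NSC.

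The lactate transporters differed from each other. Slc16a3 (MCT4, at chr11:120948480-120960868), the exporter known as a HIF target, had 3.53, 17.1 and 11.6 CPM in LTR, 1.85, 1.63 and 0.887 CPM in NF1, and 0.715, 0.794 and 0.670 CPM in NSC. All LTR libraries lay above all others, and within LTR they spread over 4.84 times, with LTR 1 the lowest. The log2 fold change was 3.88 ± 0.61 (edgeR adjusted p = 0.0024) in LTR over NSC and 1.002 ± 0.56 (edgeR adjusted p = 0.219) in NF1 over NSC. In NF1 over LTR it was -2.87 ± 0.58 (edgeR adjusted p = 0.205), and this was the single member that DESeq2 called in that comparison. Slc16a1 (MCT1), which carries lactate both ways, had 177, 191 and 180.3 CPM in LTR, 139, 128 and 149 CPM in NF1, and 108, 165 and 114 CPM in NSC, with LTR above all other libraries and no call (0.51 ± 0.20, edgeR adjusted p = 0.0691, in LTR over NSC, and adjusted p = 0.0149 without NSC 3).

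Pyruvate dehydrogenase kinases inhibit pyruvate dehydrogenase inside mitochondria. Pdk1 had 32.5, 20.4 and 38.96 CPM in LTR, 48.02, 32.1 and 38.9 CPM in NF1, and 13.9, 11.3 and 13.03 CPM in NSC. Neither tumour line overlapped NSC, and the log2 fold change was 1.26 ± 0.27 (edgeR adjusted p = 0.00837) in LTR over NSC and 1.64 ± 0.28 (edgeR adjusted p = 0.00448) in NF1 over NSC. Pdk3 had 67.7, 72.2 and 67.3 CPM in LTR, 65.3, 32.8 and 77.6 CPM in NF1, and 33.01, 29.6 and 32.8 CPM in NSC. Here NF1 2 lay inside the range of NSC, and the log2 fold change was 1.12 ± 0.28 (edgeR adjusted p = 0.0152) in LTR over NSC and 0.88 ± 0.28 (edgeR adjusted p = 0.0498) in NF1 over NSC. The NF1 call of Pdk3 was lost in 8 of 9 leave-outs (adjusted p up to 0.185) and also with other scalings, and its LTR call without NSC 1 (adjusted p = 0.0501). Summed per kb, Pdk1 and Pdk3 reached 30.9 ± 0.35 CPM per kb in LTR, 28.0 ± 9.73 in NF1 and 14.1 ± 0.90 in NSC.

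The bifunctional enzymes Pfkfb3 and Pfkfb4 set the level of fructose 2,6-bisphosphate, which activates phosphofructokinase. Pfkfb3, the isoform with the strongest kinase activity and a textbook HIF target, had 2.70, 4.58 and 6.57 CPM in LTR, 12.1, 34.3 and 4.03 CPM in NF1, and 86.02, 58.4 and 74.7 CPM in NSC. It was lower in every tumour library, 15.8-fold in LTR and 4.35-fold in NF1 (log2 fold change -3.98 ± 0.71, edgeR adjusted p = 0.00395, in LTR over NSC and -2.12 ± 0.65, edgeR adjusted p = 0.0435, in NF1 over NSC). NF1 2 was the highest of the tumour libraries, and the NF1 call was lost in 7 of 9 leave-outs (adjusted p up to 0.134), with the 10 CPM filter (0.0507) and with NF1 and NSC fitted alone (0.0745). Pfkfb4 averaged 10.96 ± 2.01 CPM in LTR, 9.02 ± 2.25 CPM in NF1 and 11.4 ± 0.412 CPM in NSC and overlapped between all groups. Pfkfb3 made up 21.4% ± 7.83 in LTR, 47.1% ± 20.9 in NF1 and 80.2% ± 3.74 in NSC of the pair per kb.

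Among the HIF factors, Hif1a was higher and Epas1 lower in both lines. Hif1a, which codes for HIF-1 alpha and lies at chr12:73901375-73947530, had 384, 319 and 331 CPM in LTR, 332, 316 and 349.5 CPM in NF1, and 166, 247 and 166 CPM in NSC. No tumour library overlapped NSC, and the log2 fold change was 0.84 ± 0.21 (edgeR adjusted p = 0.0136) in LTR over NSC and 0.79 ± 0.20 (edgeR adjusted p = 0.0245) in NF1 over NSC. Epas1, which codes for HIF-2 alpha and lies at chr17:86753700-86833410, had 1.96, 3.62 and 2.93 CPM in LTR, 2.96, 11.4 and 2.83 CPM in NF1, and 112, 55.1 and 133 CPM in NSC. The NSC libraries were at least 55.1 CPM and the tumour libraries at most 11.4 CPM, in NF1 2, with a log2 fold change of -5.14 ± 0.65 (edgeR adjusted p = 0.00128) in LTR over NSC and -4.12 ± 0.62 (edgeR adjusted p = 0.00289) in NF1 over NSC. Hif1a took 99.1% ± 0.330 in LTR, 98.2% ± 1.59 in NF1 and 64.6% ± 14.4 in NSC of the pair per kb, and its calls were lost without NSC 1 or NSC 5 in both lines and without NF1 1 or NF1 3 in NF1 (adjusted p up to 0.0661 in LTR and 0.109 in NF1). The NF1 call of Hif1a was also lost with the trend of fold change on GC content removed (adjusted p = 0.0922). The sum of both genes per kb was 59.0 ± 5.77 CPM in LTR, 57.5 ± 2.10 in NF1 and 50.6 ± 2.07 in NSC. Epas1 is known to be expressed in astrocytes and endothelium in the mouse brain. The astrocyte marker sum given above was lower in the tumour lines, with NF1 2 nearest to NSC for it and for Epas1. Within NSC the order was the opposite, as NSC 3 had the highest astrocyte sum (1698 CPM) and the lowest Epas1 (55.1 CPM). Endothelial marker sums overlapped: 1.04 to 3.08 CPM in LTR, 1.195 to 7.46 in NF1 and 1.48 to 4.18 in NSC. A part of either cell type in the Epas1 difference was not tested.

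The prolyl hydroxylase Egln1 (PHD2), the main oxygen sensor for HIF-1 alpha, had 82.5, 81.7 and 85.2 CPM in LTR, 98.0, 81.9 and 90.7 CPM in NF1, and 124, 115 and 134 CPM in NSC. Tumour libraries lay below NSC in both lines, and LTR passed (-0.58 ± 0.15, edgeR adjusted p = 0.0175, in LTR over NSC and -0.46 ± 0.15, edgeR adjusted p = 0.0539, in NF1 over NSC). That call was lost in 6 of 9 leave-outs, with an adjusted p of up to 0.124, and with no filter on low counts (adjusted p = 0.0662), while DESeq2 called Egln1 lower in NF1 too (adjusted p = 0.0111). Egln3 (PHD3), itself a HIF target, had 43.3, 32.8 and 47.1 CPM in LTR, 87.8, 6.37 and 60.1 CPM in NF1, and 46.03, 57.8 and 33.7 CPM in NSC. Its lowest library was NF1 2 and its highest NF1 1, and neither line passed.

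The mitophagy receptors Bnip3 and Bnip3l, which are induced by HIF and mark mitochondria for removal, were higher in both lines. Bnip3 had 93.2, 81.3 and 127 CPM in LTR, 159.6, 88.9 and 146 CPM in NF1, and 40.1, 38.6 and 40.9 CPM in NSC. The lowest tumour library was 1.99 times the highest NSC library, and the log2 fold change was 1.33 ± 0.25 (edgeR adjusted p = 0.00508) in LTR over NSC and 1.72 ± 0.26 (edgeR adjusted p = 0.00276) in NF1 over NSC. Bnip3l had 85.3, 79.3 and 108 CPM in LTR, 118, 138 and 119.7 CPM in NF1, and 54.3, 58.3 and 56.9 CPM in NSC. It did not overlap NSC either (0.68 ± 0.17, edgeR adjusted p = 0.0148, in LTR over NSC and 1.15 ± 0.17, edgeR adjusted p = 0.00292, in NF1 over NSC), and all NF1 libraries lay above all LTR libraries (0.46 ± 0.17, edgeR adjusted p = 0.417, in NF1 over LTR). The NF1 call of Bnip3l held in all 9 leave-outs, while its LTR call was lost without NSC 1 or NSC 5 (adjusted p up to 0.0662). These genes share 37.0% (Bnip3) and 20.8% (Bnip3l) of their 50-base stretches with other annotated genes.

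The carbonic anhydrases Car9 and Car12 hydrate CO2 outside the cell and buffer the acid that glycolysis exports. Car12 had 0.356, 0.687 and 0.746 CPM in LTR, 0.116, 0.320 and 0.0683 CPM in NF1, and 3.97, 3.97 and 4.59 CPM in NSC. It was lower in every tumour library (log2 fold change -2.80 ± 0.56, edgeR adjusted p = 0.00641, in LTR over NSC and -4.60 ± 0.63, edgeR adjusted p = 0.00213, in NF1 over NSC), and NF1 3 lay under the level of 3 counts, which is 0.102 CPM there. Car9, a widely used marker of HIF activity, had 5.40, 1.26 and 8.54 CPM in LTR, 2.32, 0.736 and 3.24 CPM in NF1, and 3.55, 1.55 and 3.78 CPM in NSC. It was low in all libraries, its groups overlapped, and its lowest library in each tumour line was replicate 2. Car9 took 93.8% ± 6.89 in LTR, 95.4% ± 6.13 in NF1 and 68.03% ± 10.2 in NSC of the pair per kb.

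Ankrd37, Ndrg1 and P4ha2, of the other HIF-induced members, were higher by 4.70-fold or more in both lines. Ankrd37, an ankyrin repeat gene known as a direct HIF-1 target and located at chr8:45996902-46005707, had 4.80, 6.03 and 5.40 CPM in LTR, 8.46, 2.53 and 3.89 CPM in NF1, and 0.503, 0.578 and 0.295 CPM in NSC. Its lowest tumour library, NF1 2, was 4.38 times its highest NSC library, and the log2 fold change was 3.54 ± 0.54 (edgeR adjusted p = 0.00219) in LTR over NSC and 3.42 ± 0.54 (edgeR adjusted p = 0.00346) in NF1 over NSC. Its exons overlap those of Ufsp2 and Lrp2bp over 26.4% of their length, and Ufsp2 had 45.0 CPM in LTR, 46.8 in NF1 and 40.6 in NSC. Ndrg1, a stress-responsive gene that rises in hypoxic cells and during differentiation, had 36.6, 37.1 and 39.1 CPM in LTR, 19.5, 45.3 and 16.8 CPM in NF1, and 3.26, 0.993 and 7.51 CPM in NSC. No tumour library overlapped NSC, the NSC libraries themselves spread over 7.56 times, and the log2 fold change was 3.27 ± 0.67 (edgeR adjusted p = 0.0068) in LTR over NSC and 2.80 ± 0.66 (edgeR adjusted p = 0.0163) in NF1 over NSC, with the NF1 call lost without NSC 1 (adjusted p = 0.0662). P4ha2, at chr11:54100095-54131665, codes for a prolyl hydroxylase that modifies collagen, and had 26.2, 36.8 and 39.1 CPM in LTR, 41.5, 27.9 and 37.6 CPM in NF1, and 6.93, 6.44 and 8.37 CPM in NSC. It had the smallest adjusted p of all members in both lines (2.23 ± 0.25, edgeR adjusted p = 0.000874, in LTR over NSC and 2.30 ± 0.25, edgeR adjusted p = 0.00108, in NF1 over NSC), and its spread within each group was small against the difference. The paralogue P4ha1 averaged 134 ± 9.35 CPM in LTR, 138 ± 12.3 CPM in NF1 and 110.2 ± 25.4 CPM in NSC and did not pass. P4ha1 still made up 85.8% ± 1.84 in LTR, 85.4% ± 2.41 in NF1 and 95.8% ± 0.520 in NSC of the pair per kb.

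Ddit4 (REDD1), an inhibitor of mTORC1 induced by stress, had 166, 77.5 and 91.4 CPM in LTR, 103, 94.3 and 111 CPM in NF1, and 96.03, 74.5 and 82.1 CPM in NSC. LTR 1 was its highest library, and its groups overlapped. Adm, which codes for the vasodilator adrenomedullin, had 28.9, 23.7 and 36.8 CPM in LTR, 31.6, 10.9 and 20.1 CPM in NF1, and 17.8, 44.2 and 18.5 CPM in NSC. NSC 3 was the highest library and NF1 2 the lowest, and neither line passed (0.15 ± 0.45, edgeR adjusted p = 0.811, in LTR over NSC and -0.36 ± 0.45, edgeR adjusted p = 0.584, in NF1 over NSC).

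Between NF1 and LTR edgeR's test called no gene and no member. In edgeR's test an unadjusted p under 0.05 was found for 1596 of 15696 genes (10.2%) and for 5 of 38 members, while DESeq2 called 330 genes and limma-voom 1. Without NF1 2 edgeR called 34 genes and no member. The libraries of both lines did not overlap for 4 members, 1 higher (Bnip3l) and 3 lower (Slc16a1, Slc16a3 and Car12), where 12.5% of all tested genes did not overlap, 7.21% higher and 5.24% lower. The 5 members by unadjusted p were Slc2a3, Slc16a3, Pfkfb3, Bnip3l and Car12, with log2 fold changes of 1.04 ± 0.35 (edgeR adjusted p = 0.384), -2.87 ± 0.58 (edgeR adjusted p = 0.205), 1.86 ± 0.65 (edgeR adjusted p = 0.4), 0.46 ± 0.17 (edgeR adjusted p = 0.417) and -1.80 ± 0.60 (edgeR adjusted p = 0.384) in that order. These counts are near those over the whole table.

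Other genes of the same pathways were counted for context, from lists chosen with earlier results of these data known. Of 28 tested other glycolysis genes, 4 were called higher and 13 lower in LTR, and 2 higher and 9 lower in NF1, with medians of -0.74 and -0.41. Over all tested genes 14.9% were higher and 20.9% lower in LTR and 10.1% and 13.1% in NF1, with medians of -0.062 and 0.004, so the share called lower was above that background in both lines and the share called higher was not. Aldolase C (Aldoc), the brain isoform that is also an astrocyte gene, had 21.4, 24.9 and 18.8 CPM in LTR, 18.7, 43.7 and 16.3 CPM in NF1, and 241, 252 and 233 CPM in NSC. It was lower in every tumour library (-3.48 ± 0.37, edgeR adjusted p = 0.000777, in LTR over NSC and -3.21 ± 0.37, edgeR adjusted p = 0.00122, in NF1 over NSC), and Gpd1, Mpc1 and Pdk2 were the next of that list in LTR and Gpd1, Pgm1 and Pdk4 in NF1. Gpd1, cytosolic glycerol-3-phosphate dehydrogenase, was at 2.13 ± 1.14 CPM in LTR, 3.50 ± 1.26 CPM in NF1 and 80.5 ± 58.5 CPM in NSC. Mpc1, a subunit of the mitochondrial pyruvate carrier, had a log2 fold change of -2.46 ± 0.34 (edgeR adjusted p = 0.00153) in LTR over NSC and -1.75 ± 0.33 (edgeR adjusted p = 0.00667) in NF1 over NSC. The phosphoglucomutase gene Pgm1 was higher in both lines (0.81 ± 0.18, edgeR adjusted p = 0.0094, in LTR over NSC and 1.12 ± 0.18, edgeR adjusted p = 0.00386, in NF1 over NSC). Pgm2, another phosphoglucomutase gene of that list, went the other way. It was called lower in LTR (-1.24 ± 0.29, edgeR adjusted p = 0.0111, over NSC). In NF1 it lay below NSC without overlap and did not pass (-0.78 ± 0.29, edgeR adjusted p = 0.0782, over NSC). The pyruvate dehydrogenase kinase genes Pdk2 (-2.55 ± 0.52, edgeR adjusted p = 0.00645, in LTR over NSC and -1.78 ± 0.50, edgeR adjusted p = 0.032, in NF1 over NSC) and Pdk4 (-3.24 ± 0.72, edgeR adjusted p = 0.00923, in LTR over NSC and -4.24 ± 0.76, edgeR adjusted p = 0.00565, in NF1 over NSC) were lower in both, opposite to the members Pdk1 and Pdk3.

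Of 12 tested pentose phosphate and gluconeogenesis genes, 3 were called higher and 2 lower in LTR and 1 each in NF1. Apart from the 3 higher in LTR, these counts are near or below the shares over all tested genes. Pyruvate carboxylase, Pcx, which feeds pyruvate into the citric acid cycle and is known in brain mainly from astrocytes, was lower in both lines (-3.18 ± 0.58, edgeR adjusted p = 0.00431, in LTR over NSC and -2.54 ± 0.56, edgeR adjusted p = 0.0132, in NF1 over NSC). Mitochondrial phosphoenolpyruvate carboxykinase, Pck2, was higher in both (1.997 ± 0.47, edgeR adjusted p = 0.0115, in LTR over NSC and 1.62 ± 0.46, edgeR adjusted p = 0.0342, in NF1 over NSC). In LTR, Prps1, which makes phosphoribosyl pyrophosphate, was higher (1.46 ± 0.38, edgeR adjusted p = 0.0174, in LTR over NSC and 0.98 ± 0.38, edgeR adjusted p = 0.0898, in NF1 over NSC), and G6pdx, the entry enzyme of the pentose phosphate pathway, was lower (-0.88 ± 0.18, edgeR adjusted p = 0.00711, in LTR over NSC and -0.51 ± 0.18, edgeR adjusted p = 0.0729, in NF1 over NSC), and neither passed in NF1.

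Of 10 tested other HIF pathway regulators, 1 was higher and 1 lower in LTR and 1 was lower in NF1, near or below the shares over all tested genes. Arnt2, the neural dimer partner of the HIF alpha subunits, had 70.6, 47.8 and 60.99 CPM in LTR, 85.05, 164 and 52.1 CPM in NF1, and 417, 289.7 and 388 CPM in NSC. It was lower without overlap (-2.61 ± 0.40, edgeR adjusted p = 0.00212, in LTR over NSC and -1.86 ± 0.39, edgeR adjusted p = 0.01, in NF1 over NSC), and NF1 2 was the nearest tumour library to NSC. Eloc, the elongin C gene of the VHL ubiquitin ligase, was higher in LTR and did not pass in NF1 (1.16 ± 0.37, edgeR adjusted p = 0.0354, in LTR over NSC and 0.99 ± 0.37, edgeR adjusted p = 0.0786, in NF1 over NSC).

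Of 36 other hypoxia-induced genes, all tested, 4 were higher and 11 lower in LTR and 6 higher and 8 lower in NF1, with medians of -0.17 and -0.07. Against the shares over all tested genes given above, the 4 higher in LTR are near that background, and the other 3 counts are somewhat above it. Mif, a cytokine gene, had 502, 588 and 507 CPM in LTR, 459.9, 247 and 603 CPM in NF1, and 107, 165 and 106 CPM in NSC and was higher in both lines (2.08 ± 0.33, edgeR adjusted p = 0.00257, in LTR over NSC and 1.79 ± 0.33, edgeR adjusted p = 0.0062, in NF1 over NSC). The disulfide-forming oxidase Ero1l was higher in both too (1.98 ± 0.46, edgeR adjusted p = 0.0105, in LTR over NSC and 2.63 ± 0.47, edgeR adjusted p = 0.00543, in NF1 over NSC). The cell cycle gene Ccng2 was higher in NF1 and did not pass in LTR (0.49 ± 0.19, edgeR adjusted p = 0.0708, in LTR over NSC and 1.23 ± 0.19, edgeR adjusted p = 0.00347, in NF1 over NSC). The receptor gene Gpr146 was lower in both lines (-2.83 ± 0.36, edgeR adjusted p = 0.00128, in LTR over NSC and -1.82 ± 0.34, edgeR adjusted p = 0.00674, in NF1 over NSC). Ppp1r3c, which targets protein phosphatase to glycogen, was lower in both as well (-5.12 ± 0.98, edgeR adjusted p = 0.00513, in LTR over NSC and -3.37 ± 0.89, edgeR adjusted p = 0.0256, in NF1 over NSC). Lox, a collagen cross-linking enzyme, was lower too, with 0 counts in all 3 LTR libraries, which allows 0.0889, 0.114 and 0.0896 CPM at 3 counts a library, against 4.42, 1.55 and 10.99 CPM in NSC (edgeR adjusted p = 0.00316). It was lower in NF1 as well, with 0.0290, 0.0960 and 0 CPM in NF1 (edgeR adjusted p = 0.00684).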

How the data were processed

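The members and lists were chosen with earlier results of these data known. Per the labels' protocols, RNA came from a Qiagen RNeasy Plus kit and the libraries from a NEBNext Ultra kit. What the authors deposited are raw counts of reads per gene. Per the submitters' processing notes the tools were HTSeq, the aligner STAR (2.5.2a) and DESeq2 (1.8.2) on the build GRCm38/mm10; these give no counting mode, strand setting or annotation release. Strand is not kept by this kit, so overlapping genes are uncertain. All 9 value columns were used. Genes passing filterByExpr (minimum count 10) were fitted over all 9 libraries with edgeR 4.0.16 (TMM, quasi-likelihood F test, Benjamini-Hochberg over 15696 genes), since the 3 groups then share an estimate of the spread. limma 3.58.1 and DESeq2 1.42.0 were alternatives, in R 4.3.3; shares, copies and promoters used Python 3.11.15 with scipy 1.17.1. Coordinates and exon lengths come from GENCODE M21 (GRCm38). All members are named, and up to 4 called genes of each other pathway list by smallest adjusted p, with Pgm2 added beside Pgm1. Cell type markers are given by their sums and by single genes. The test was also run on simulated counts with 100 genes changed at each fold. It recovered 57% of 4-fold and 4% of 2-fold changes for LTR against NSC (15087 genes). For NF1 against NSC (15052 genes) it recovered 64% and 9%. In the data 5634 and 3631 genes were called, so the adjusted cutoff was less strict than in the simulation. The simulated rates therefore do not give the recovery in the data. Counts below 3 per library were taken as the limit of detection and cover counting error only.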

Additional observations from a re-analysis of the deposited data

How the results depend on the processing

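The 9 members called in both lines with every library left out in turn kept their direction in all alternatives run that tested them; the 10 CPM filter removed Ankrd37 and Car12. Counts of calls moved by over 1.5 times as follows. With the replicate number as a block, 3477 genes and 8 higher members were called in LTR against NSC and 1942 genes and 7 higher members in NF1 against NSC. With the GC trend removed as well, these were 3328 and 8, and 1876 and 6. The block lost the LTR calls of Bnip3l, Egln1, Hif1a, Ldha, Pfkm, Pkm and Tpi1. In NF1 it lost those of Hif1a, Ldha, Pdk3, Pfkfb3, Pkm and Slc2a3. The number 5 occurs in NSC 5 only, so the block also takes that library out of the comparisons with NSC. Leaving out NSC 5 without a block lost the same members in both lines. These losses therefore cannot be told apart from the loss of NSC 5. Same-numbered libraries deviated from their group means at correlations of -0.185 to 0.121. With 3 libraries a group, this cannot decide whether the numbers pair the cultures. A filter at 10 CPM in 3 libraries left 2103 calls in NF1 against NSC. In NF1 against LTR, DESeq2 called 330 genes and 1 lower member, limma-voom 1 gene, and no filter gave 52. Without both NF1 2 and NSC 3 there were 7485 genes and 19 higher members in NF1 against NSC and 104 genes in NF1 against LTR. With each library left out, all genes called ran from 3281 to 7640 in LTR against NSC, 1752 to 6900 in NF1 against NSC and 0 to 34 in NF1 against LTR, members called higher from 7 to 16 and from 6 to 14 in the first 2, and families whose shares do not overlap between NF1 and LTR from 2 to 7. The reversed log2 fold changes below all belong to members not called with all libraries, and the cause was not tested. In LTR against NSC, leaving out each library gave Adm -0.0781 to 0.84, Egln3 -0.34 to 0.17, Eno1 -0.32 to 0.55, Eno2 -0.28 to 0.33, Gapdh -0.45 to 0.65 and Pfkfb4 -0.14 to 0.21. In NF1 against NSC it gave Adm -0.79 to 0.31, Egln3 -0.46 to 0.70, Eno1 -0.56 to 0.28, Eno2 -0.0596 to 1.77, Gapdh -0.41 to 0.66, Gpi1 -0.54 to 0.0935, Hk1 -0.12 to 0.37, Hk2 -0.53 to 0.0059 and Slc16a1 -0.0076 to 0.42. Without both NF1 2 and NSC 3, LTR against NSC gave Egln3 0.10, Eno1 0.48, Eno2 -0.34, Gapdh 0.58 and Pfkfb4 0.0349, and NF1 against NSC gave Adm 0.56, Eno1 0.35, Eno2 -0.45, Gapdh 0.66 and Gpi1 0.0027; of these, Gapdh passed in both (edgeR adjusted p = 0.0328 and 0.0283). With copies added, an alternative chosen after seeing the data, LTR gave Eno1 0.43 and Gapdh 0.21, and NF1 gave 0.16 and 0.25. The block gave Egln3 0.33 in LTR and Car9 0.22 and Hk1 -0.0849 in NF1; with the GC trend removed too, Egln3 0.35 in LTR and Car9 0.30, Hk1 -0.0155 and Slc16a1 -0.19 in NF1. The GC trend alone gave Slc16a1 -0.0705 in NF1. Limma-voom gave Gapdh 0.0082 in LTR and Egln3 -0.47 and Gapdh 0.0585 in NF1. Eno2 in LTR was -0.056 with the 10 CPM filter and -0.0244 with library totals.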
